A study of Mus musculus with 20 samples.

Results

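miR-146a and miR-146b are paralogous microRNAs (miRNAs), made from separate genes, whose 5p arms share a seed. Their 4 mature arms, miR-146a-5p, miR-146a-3p, miR-146b-5p and miR-146b-3p, were followed in 20 small RNA libraries from cultured mouse bone marrow, and are 4 of the 1248 miRNA arms that had a read. Members were taken by sequence: a read of 18 to 26 nt had to match the annotated hairpin without mismatch, and it was given to the arm that held most of it. All 4 arms were detected, and 3 of them (all but miR-146a-3p) had enough reads to be tested.

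The libraries cover 2 cell types, 2 genotypes and 5 stimulus states, with 1 library for each combination. Bone marrow was cultured with hybridoma supernatant that held GM-CSF to give dendritic cells (DC), or M-CSF to give macrophages. Wild-type cells came from C57BL/6 mice and miR-155 k.o. cells from mice of the line B6.Cg-Mir155tm1.1Rsky/J, killed at 8 to 12 weeks of age. Cells were left without a stimulus (called immature for DC and unstimulated for macrophages) or given lipopolysaccharide (LPS), oxLDL, eLDL or LDL. For DC the labels give LPS at 200 ng/ml overnight at day 8 to 9 of culture. The labels give no dose of any lipoprotein, and no dose or time of LPS in macrophages. No label says that the libraries came from separate mice or cultures, so every p-value below measures only the spread between these libraries. The knockout is constitutive, so the cells also differentiated without miR-155. Each culture is a bulk population, in which more cells of a type and more RNA per cell cannot be told apart.

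miR-146a and miR-146b are known as brakes on Toll-like receptor and interleukin-1 signalling. Their 5p arms repress the adaptor proteins Traf6 and Irak1, and transcription of the miR-146a gene is raised by NF-kB, so that the miRNA is part of a negative feedback loop in myeloid cells. The seed, bases 2 to 8 of the mature miRNA, sets most of the pairing with target mRNAs. miR-155, the miRNA missing in the knockout, is itself induced by LPS and is known for the opposite role, promoting inflammatory responses.

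The mature sequences are shown because the paralogues have to be told apart by a few bases. They are RefSeq's (GRCm38.p6), written 5′ to 3′ with the seed in capitals.
miR-146a-5p: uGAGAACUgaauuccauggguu
miR-146b-5p: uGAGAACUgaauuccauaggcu
miR-146a-3p: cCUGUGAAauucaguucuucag
miR-146b-3p: gCCCUAGGgacucaguucuggu
The 5p arms are 22 nt long and identical at 20 positions, including the 17 leading bases. Counted from the 5′ end of miR-146a-5p, they differ by G18A and U21C. Among the 1738 mature mouse miRNAs in the RefSeq table, only these 2 carry their seed. The 3p arms have different seeds, each held by no other mature in that table, and match at 4 positions when aligned without gaps.

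The hairpins, with both mature arms in capitals, show where the reads could come from.
Mir146 hairpin: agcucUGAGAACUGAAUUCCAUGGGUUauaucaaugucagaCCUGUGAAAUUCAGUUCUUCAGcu
Mir146b hairpin: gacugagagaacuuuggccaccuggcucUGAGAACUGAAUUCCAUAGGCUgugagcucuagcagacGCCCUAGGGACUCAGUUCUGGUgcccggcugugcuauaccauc
The miR-146a hairpin (gene symbol Mir146) lies at chr11:43374397-43374461 on the minus strand of GRCm38 and overlaps no other annotated gene. The nearest is the lincRNA Gm12148, 11021 bp away on the plus strand. Mir146b lies at chr19:46342762-46342870 on the plus strand, within an intron of Mfsd13a, which is transcribed from the same strand. The hairpins share a run of 21 bases around the start of the 5p arm. Reads short enough to fit both were rare, 15 in all 20 libraries.

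Libraries held 10.3 to 22.8 M reads, of which 42.5% to 63.8% (5.13 to 11.8 M) matched an annotated miRNA hairpin. Levels are given as CPM, the reads of an arm per 1000000 of these hairpin reads. A count of 0 allows up to 3 reads, which is 0.254 to 0.584 CPM, and this limit and all intervals cover counting error only. miR-155-5p had 2 to 7 reads in the knockout DC libraries and 33 to 45 in the knockout macrophage libraries, against 892 to 84451 and 38435 to 317684 in the wild-type ones. The 3 arms taken as myeloid markers (of miR-223 and miR-142a) summed to 17100 to 26500 CPM in DC and 22100 to 33200 CPM in macrophages. No list of markers specific to DC or to macrophages was made. Of markers of other cell types, the summed levels of 5 stromal arms reached at most 277 CPM, those of 6 epithelial arms 280 CPM, and those of 4 erythroid arms, including miR-486-5p, 992 CPM.

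The cell types differed most. miR-146b-5p was the most abundant miRNA in all 10 macrophage libraries, and miR-146a-5p was the lower of the paralogues there by over 2 orders of magnitude, whereas in DC both stood at similar levels. miR-146a-5p was 0.108 times as high in macrophages as in the matched DC library (median of 10 pairs, range 0.0445 to 0.169), and miR-146b-5p was 21.1 times as high (12 to 38.6).

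In the order no stimulus, LPS, oxLDL, eLDL and LDL, miR-146a-5p had 10130, 11150, 12710, 11650 and 12540 CPM in wild-type DC. In knockout DC it had 11530, 10830, 10840, 9513 and 12050 CPM. These 2 sets of levels overlapped, and the 10 DC libraries spanned only 1.34 times from lowest to highest. In wild-type macrophages the same arm had 450.4, 1402, 895.8, 1027 and 827.3 CPM, and in knockout macrophages 1046, 1477, 1709, 1606 and 1584 CPM. The unstimulated wild-type library was the lowest of all 20, and the wild-type macrophage library with LPS was the only one of its genotype that reached into the range of the knockout. The order of the cultures by mean level was wild-type DC (11630 ± 1056 CPM, SD, n = 5), knockout DC (10950 ± 952.1), knockout macrophages (1484 ± 258.7) and wild-type macrophages (920.6 ± 344.2). Neighbours in this order overlapped except across the cell types.

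miR-146b-5p had 9446, 10850, 6698, 8219 and 8053 CPM in wild-type DC, in the same order of stimuli. In knockout DC it had 14770, 20590, 12030, 17230 and 14100 CPM, so that every knockout library lay above every wild-type one. In wild-type macrophages it had 234800, 231200, 258300, 265700 and 251400 CPM, and in knockout macrophages 266900, 247900, 251800, 255300 and 261800 CPM. These levels overlapped and spanned 1.15 times over the 10 libraries. The arm took 25.3% ± 1.2 (SD, n = 10) of miRNA reads in macrophages, ahead of miR-21a-5p with 14% ± 3.46, while in DC miR-21a-5p led with 25.7% ± 3.27 and miR-146b-5p ranked between 13 and 28.

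**Figure D1:**
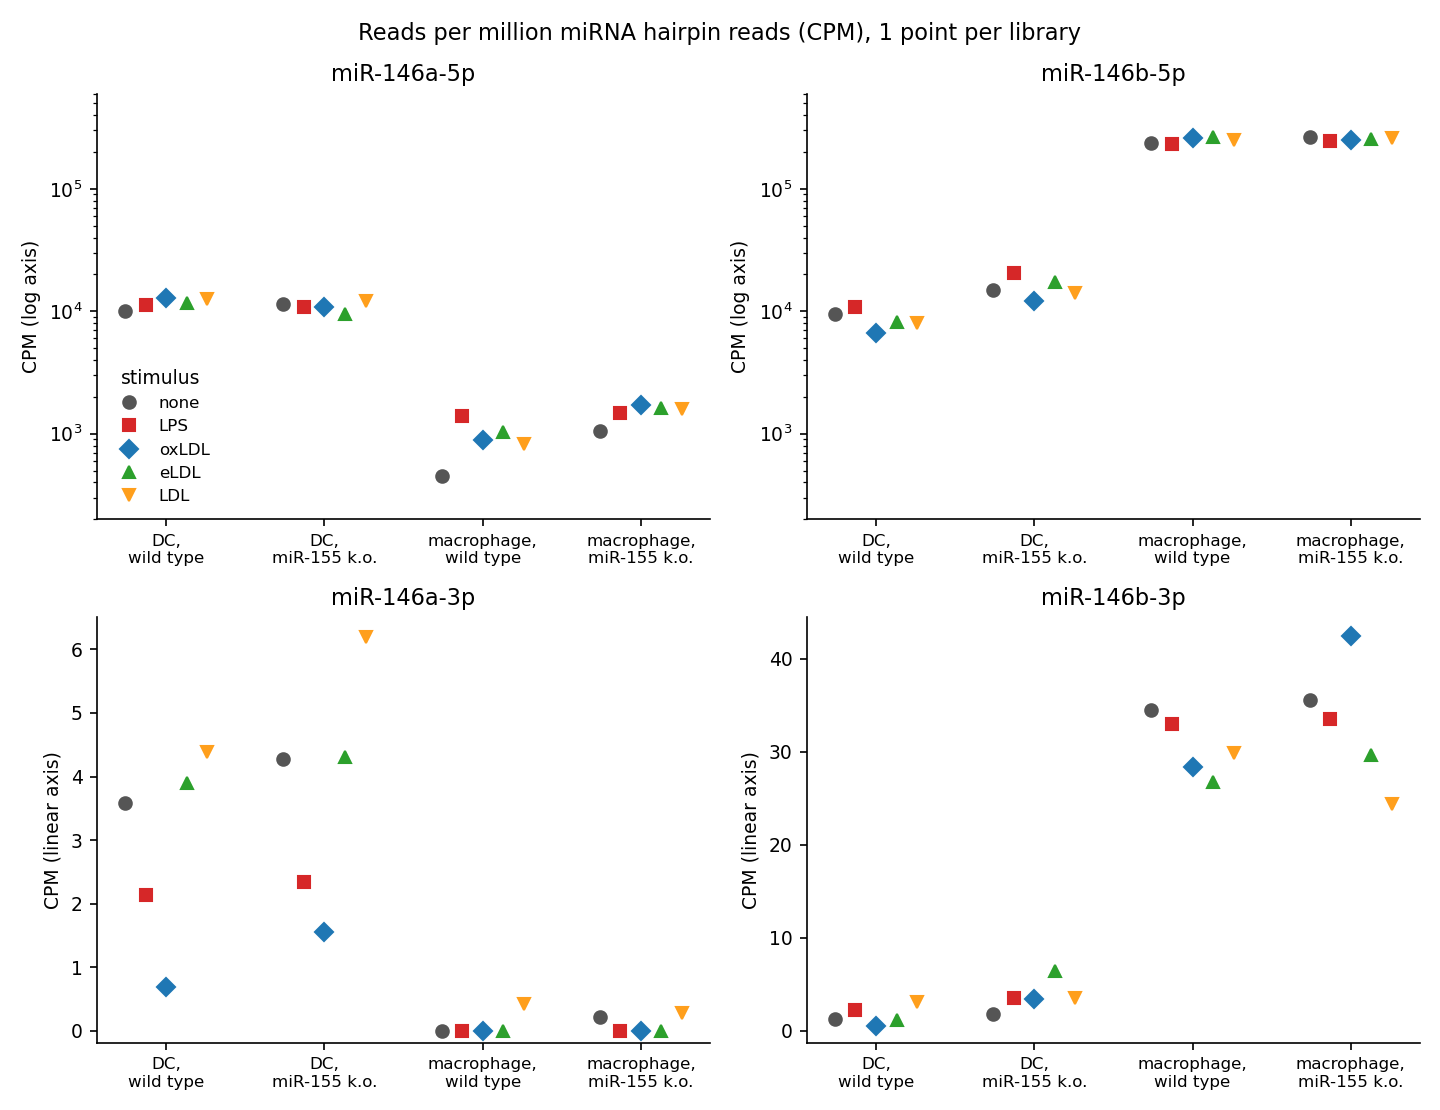
Levels of the 4 arms in CPM of miRNA hairpin reads, 1 point per library, by culture and stimulus; the 5p panels share a log axis and the 3p panels have linear axes of their own. miR-146a-5p falls from about the level of miR-146b-5p in DC to 450.4 to 1709 CPM in macrophages, where miR-146b-5p stands at 231200 to 266900 CPM.

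edgeR's quasi-likelihood test was run on the 386 arms that reached 5 CPM in 2 or more libraries, with the p-values adjusted over all 386 by the Benjamini-Hochberg method (called: adjusted p under 0.05). All log2 differences with a standard error (SE) come from this fit, in which libraries were scaled by TMM, a factor that centres most arms. The cell type difference, macrophages minus DC over the 10 matched pairs, was −3.24 ± 0.09 for miR-146a-5p (adjusted p = 1.18e-14) and 4.53 ± 0.07 for miR-146b-5p (adjusted p = 5.68e-18). For miR-146b-3p it was 3.79 ± 0.21 (adjusted p = 4.88e-11). In this contrast 78.8% of all tested arms were called, so that a call alone says little about these 3. Their differences were larger than the residual spread of single libraries, which was 0.24 for miR-146a-5p, 0.09 for miR-146b-5p and 0.41 for miR-146b-3p (SD on the log2 scale, 8 degrees of freedom), against a median of 0.28 over all tested arms. Markers of other cells also differed between the cell types without overlap. The 4 erythroid arms summed to 613 to 992 CPM in DC and 208 to 362 CPM in macrophages, and miR-150-5p, the single lymphoid marker, stood at 6.15 to 24 and 63.2 to 167 CPM. Their part in the cell type difference was not tested.

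The ratio of the paralogues within a library needs no scaling between libraries. miR-146b made up 48.25%, 49.32%, 34.52%, 41.37% and 39.11% of the 5p reads of the pair in wild-type DC, in the order given above, and 56.18%, 65.53%, 52.6%, 64.42% and 53.92% in knockout DC. With at least 102002 reads behind each value, the exact binomial 95% intervals were at most 0.61 percentage points wide. Among exactly matching reads, miR-146a was thus the more abundant paralogue in all 5 wild-type DC libraries and miR-146b in all 5 knockout ones. Reads with non-templated 3′ tails, described below, are left out of these shares. In DC they took 20.2% to 29.84% of miR-146a-5p reads and 3.32% to 5.14% of miR-146b-5p reads. The lead of miR-146b in knockout DC therefore need not hold with tailed reads included. In macrophages the share of miR-146b ran from 99.4% to 99.81% in the wild type and from 99.33% to 99.61% in the knockout. The log2 ratio of miR-146b-5p to miR-146a-5p was 7.78 ± 1.05 (SD) higher in macrophages, in 10 of 10 pairs (exact sign-flip permutation test, two-sided, p = 0.00195, adjusted p = 0.00977 over the 5 tests of the ratio).

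Between genotypes the ratio moved in different directions in the 2 cell types. In DC it was 0.94 ± 0.33 (SD) higher in the knockout, in 5 of 5 pairs (exact p = 0.0625, the smallest that 5 pairs allow, adjusted p = 0.156). In macrophages it was lower by a mean difference of −0.71 ± 0.43 and higher in 1 of 5 pairs, that with LPS (exact p = 0.125, adjusted p = 0.208). Over all 10 pairs the mean difference was 0.12 (exact permutation p = 0.697). The 4 differences of LPS from no stimulus were 0.06 in wild-type and 0.57 in knockout DC, and −1.66 in wild-type and −0.61 in knockout macrophages (exact permutation p = 0.625, where 4 pairs cannot go below 0.125).

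**Figure D2:**
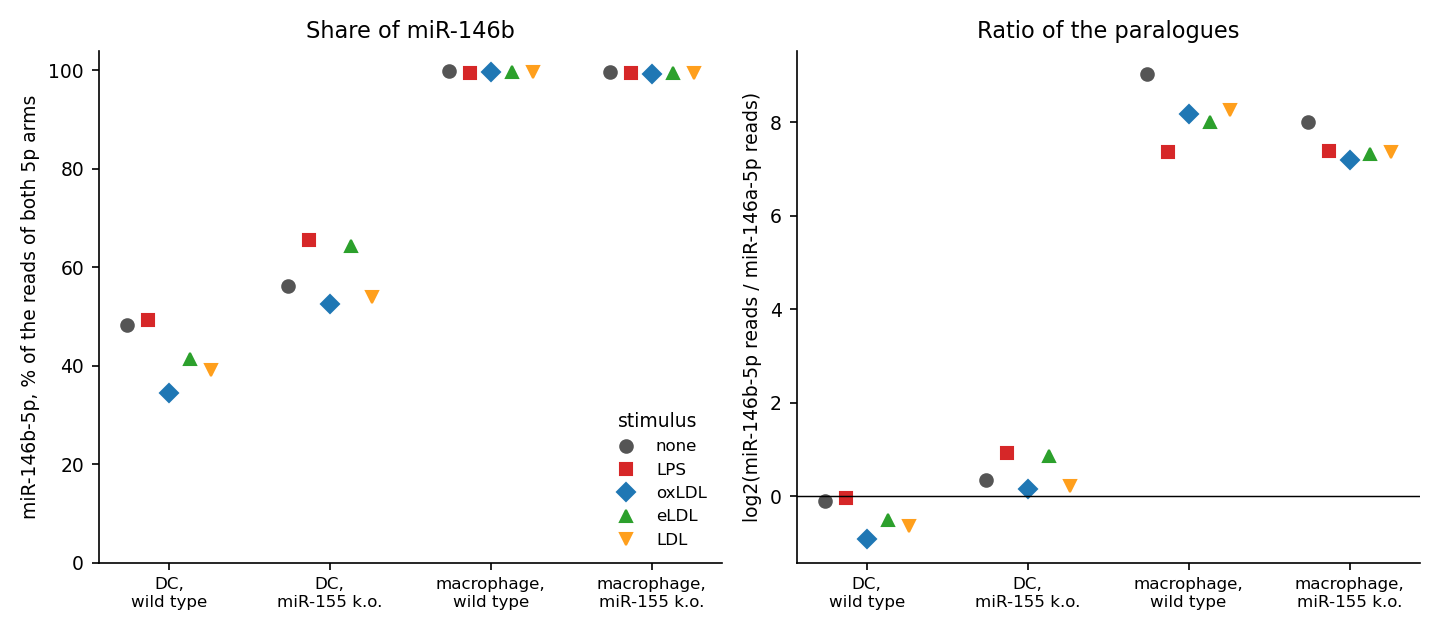
Share of miR-146b among the exactly matching 5p reads of both paralogues (left, %) and log2 ratio of miR-146b-5p to miR-146a-5p (right), 1 point per library. The 5 knockout DC libraries (52.6% to 65.53%) lie above the 5 wild-type ones (34.52% to 49.32%), and all 10 macrophage libraries lie above 99%.

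The genotypes differed in a different paralogue in each cell type. In DC, miR-146b-5p was 1.56 to 2.1 times as high in the knockout as in the matched wild-type library, in 5 of 5 pairs, and miR-146a-5p was 0.817 to 1.14 times as high. In macrophages, miR-146a-5p was 1.05 to 2.32 times as high in the knockout, in 5 of 5 pairs, and miR-146b-5p 0.961 to 1.14 times. The fit gave a rise of 0.97 ± 0.09 for miR-146b-5p in knockout DC (adjusted p = 2.6e-06), beside 0.03 ± 0.12 for miR-146a-5p (adjusted p = 0.941). The miR-146b-3p value in DC was 1.26 ± 0.33 (adjusted p = 0.0268), and it too was higher in 5 of 5 pairs, but it rests on 5 to 42 reads a library. In this contrast 8.55% of all tested arms were called. In macrophages the difference was 0.68 ± 0.12 for miR-146a-5p (adjusted p = 0.000597) and −0.03 ± 0.09 for miR-146b-5p (adjusted p = 0.87), where 24.4% of all tested arms were called.

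The difference between the cell types in the genotype effect, macrophages minus DC, was called for both 5p arms, with 0.65 ± 0.17 for miR-146a-5p (adjusted p = 0.0178) and −1.01 ± 0.13 for miR-146b-5p (adjusted p = 3.08e-05), while 13.5% of all tested arms were called. For miR-146b-3p it was −1.24 ± 0.41 (adjusted p = 0.0603), and it was called with DESeq2 (−1.25, adjusted p = 0.0199), no filter (−1.22, adjusted p = 0.0176), tags of a single arm only (−1.28, adjusted p = 0.043), tailed reads included (−1.15, adjusted p = 0.0359) and in 6 of 20 fits that left out 1 library (−1.52 to −1.40). The call of miR-146a-5p was lost without any 1 of 5 libraries, which were the knockout DC with eLDL (0.57) or oxLDL (0.55), the wild-type DC with oxLDL (0.55), and the unstimulated (0.50) or oxLDL (0.57) knockout macrophages. The genotype call of miR-146b-3p in DC was lost without the knockout library with eLDL (0.90) or oxLDL (0.95), or the wild-type library with eLDL (0.94), oxLDL (0.95) or no stimulus (1.29). The summed stromal markers moved with genotype in both cell types. They lay at 56.2 to 219 CPM in wild-type and 12.2 to 46.9 CPM in knockout DC, and at 25.5 to 277 CPM in wild-type and 0.741 to 25.5 CPM in knockout macrophages, with 5 of 5 arms read in each wild-type culture and miR-145a-5p (DC) or miR-214-3p (macrophages) at 0 in the knockout. Most of each wild-type sum was a single arm, miR-143-3p. It had 42.6 to 150 CPM in wild-type and 1.84 to 5.7 CPM in knockout DC. In macrophages it had 24.4 to 267 CPM in the wild type and 0.635 to 23.6 CPM in the knockout. The sums therefore mostly describe that arm. The 6 epithelial arms, all with reads, also differed in DC (234 to 280 CPM in the wild type, 162 to 180 CPM in the knockout), and the 2 endothelial arms in macrophages (12 to 16.8 and 2.92 to 9.31 CPM). The part of these markers in the genotype differences was not tested.

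LPS was set against no stimulus in each cell type. In macrophages, miR-146a-5p had 450.4 CPM without and 1402 CPM with LPS in the wild type (3.11-fold, 95% interval from counting error 2.99 to 3.24) and 1046 and 1477 CPM in the knockout (1.41-fold, 1.38 to 1.45). The fit gave a rise of 1.14 ± 0.20 (adjusted p = 0.000642), higher in 2 of 2 pairs. miR-146b-5p had 0.985 and 0.929 times its unstimulated level in the 2 genotypes, and the fit gave −0.01 ± 0.14 (adjusted p = 0.981). Of all tested arms 19.9% were called for LPS in macrophages.

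In DC, miR-146b-5p had 9446 CPM without and 10850 CPM with LPS in the wild type (1.15-fold) and 14770 and 20590 CPM in the knockout (1.39-fold), and rose by 0.76 ± 0.14 in the fit (adjusted p = 0.001). miR-146a-5p was 1.1 and 0.94 times its level in immature DC and had 0.44 ± 0.19 (adjusted p = 0.118). That value was called with no filter on low counts (0.50, adjusted p = 0.0223), with tags of a single arm only (0.54, adjusted p = 0.0492), and without the macrophage library with LPS of the knockout (0.45, adjusted p = 0.0404) or the wild type (0.44, adjusted p = 0.0433) or the unstimulated knockout one (0.50, adjusted p = 0.0475). miR-146b-3p had 1.34 ± 0.53 (adjusted p = 0.0844), from 9 and 15 reads in immature DC and 20 and 38 with LPS. In this contrast 21.8% of all tested arms were called. The values from the fit exceed the CPM ratios because TMM raised the libraries of DC with LPS against the immature ones. Scaled by total miRNA reads alone, the median of all tested arms moved from −0.04 to −0.46, and calls shifted from 40 higher and 44 lower to 26 higher of 151. With that scaling miR-146b-5p had 0.34 (adjusted p = 0.0431) and miR-146a-5p 0.02. The DC libraries with LPS also had the highest summed stromal markers of their genotype, 219 against 56.2 to 106 CPM in the wild type and 46.9 against 12.2 to 18.3 CPM in the knockout, whose part in the difference was not tested.

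The LPS effect in macrophages minus that in DC was −0.77 ± 0.20 for miR-146b-5p (adjusted p = 0.0201), among 13.2% of all tested arms called. It was 0.70 ± 0.28 for miR-146a-5p (adjusted p = 0.119), which was not called. The calls changed with the scaling. With total miRNA reads, miR-146b-5p had −0.40 (adjusted p = 0.103) and miR-146a-5p 1.07 (adjusted p = 0.0124). The call of miR-146b-5p was also lost without the wild-type macrophage library with LPS (−0.71, adjusted p = 0.0587), and miR-146a-5p was called without the knockout one (1.07, adjusted p = 0.0114).

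Whether the LPS response of the miR-146 arms differed without miR-155 was asked in a fit with stimulus within genotype (4 residual degrees of freedom). The response of miR-146a-5p in the knockout minus that in the wild type, averaged over the cell types, was −0.73 ± 0.24 (edgeR, adjusted p = 0.699), and that of miR-146b-5p was 0.05 ± 0.22 (adjusted p = 0.99). edgeR called no arm in this contrast (percent called 0), with 23 arms at an unadjusted p under 0.05, and DESeq2 called 0 as well. As ratios of CPM, the response of miR-146a-5p was 3.11-fold in the wild type and 1.41-fold in the knockout in macrophages, and 1.1-fold and 0.94-fold in DC. A further fit, added after the data were seen, took the libraries of 1 cell type alone with a single LPS-by-genotype term (3 residual degrees of freedom), which sets LPS against the mean of the other 4 states. In macrophages, where 0% of the 353 tested arms were called, miR-146a-5p had −0.82 ± 0.19 (edgeR, adjusted p = 0.124) and miR-146b-5p 0.10 ± 0.14 (adjusted p = 0.897). In DC, where 0.297% of the 337 tested arms were called, miR-146a-5p had 0.03 ± 0.27 (edgeR, adjusted p = 0.976) and miR-146b-5p 0.05 ± 0.25 (adjusted p = 0.975).

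In macrophages the mean of the 3 lipoproteins showed a rise of miR-146a-5p of 0.75 ± 0.17 over the unstimulated libraries (adjusted p = 0.00591), where 11.7% of all tested arms were called. Against its unstimulated library, miR-146a-5p was 1.99, 2.28 and 1.84 times as high with oxLDL, eLDL and LDL in the wild type, and 1.63, 1.54 and 1.52 times in the knockout. All 6 lipoprotein libraries lay above the unstimulated library of their genotype. Taken singly, oxLDL gave 0.75 ± 0.20 (adjusted p = 0.0205, with 9.33% of all tested arms called), eLDL 0.81 ± 0.20 (adjusted p = 0.0167, with 8.81%) and LDL 0.68 ± 0.20 (adjusted p = 0.046, with 7.25%). The 3 values lay within 1 SE of each other, and their differences were not tested. The lipoprotein contrast lost its call without the unstimulated wild-type library (0.48 ± 0.20, adjusted p = 0.195), and the LDL call held in only 3 of 20 fits that left out 1 library. The oxLDL call was lost in 9 of these fits, with 0.48 without the unstimulated wild-type or the knockout oxLDL macrophage library. The eLDL call was lost in 3, which left out the library with eLDL of the wild type (0.78) or the knockout (0.84), or the unstimulated one of the wild type (0.54). All 3 calls were lost with upper-quartile scaling (0.61, 0.66 and 0.61) and with macrophage libraries alone (0.71, 0.76 and 0.65), and those of oxLDL (0.61) and LDL (0.60) with tailed reads included. That unstimulated wild-type library also had the highest summed stromal markers of all 20, 277 CPM (267 CPM of it miR-143-3p), against 0.741 CPM in the unstimulated knockout library. The part of these markers in the lipoprotein and LPS differences was not tested.

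miR-146b-5p did not pass in macrophages with lipoproteins (−0.03 ± 0.12, adjusted p = 0.921). In DC the lipoproteins gave 0.26 ± 0.16 for miR-146a-5p (adjusted p = 0.548) and −0.01 ± 0.12 for miR-146b-5p (adjusted p = 1), in a contrast where 0.518% of all tested arms were called. For the single lipoproteins in DC the shares called were 0.777% (oxLDL), 0.259% (eLDL) and 0.259% (LDL), and no miR-146 arm was among them. The value of miR-146b-5p with oxLDL was −0.17 ± 0.14 (adjusted p = 0.694), from 0.709 and 0.814 times the immature level in the 2 genotypes.

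LPS was set against the mean of the 3 lipoproteins as a contrast without the unstimulated libraries. In DC it gave a rise of 0.77 ± 0.11 for miR-146b-5p (adjusted p = 9.1e-05, with 26.4% of all tested arms called) and 0.19 ± 0.16 for miR-146a-5p (adjusted p = 0.447). In macrophages it gave 0.40 ± 0.16 for miR-146a-5p (adjusted p = 0.105, with 13.7% of all tested arms called), and here the genotypes differed: LPS had the highest level of the 5 wild-type libraries, whereas in the knockout the 3 lipoprotein libraries (1584 to 1709 CPM) lay above LPS (1477 CPM). Without the knockout macrophage library with LPS the contrast was called (0.76, adjusted p = 0.0068), and without the wild-type one it was −0.039 and not called.

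**Figure D3:**
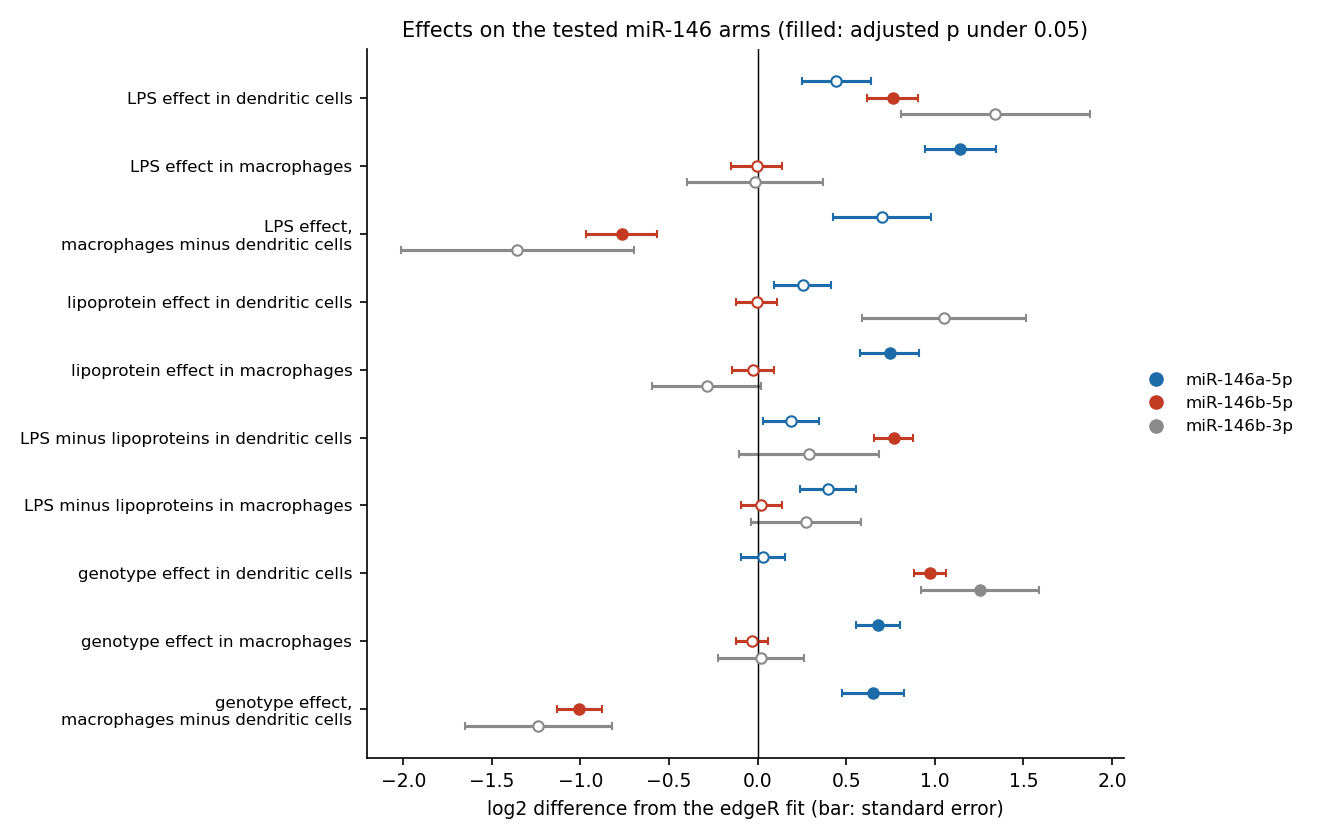
log2 differences of the 3 tested miR-146 arms in 10 contrasts of the edgeR fit, with standard errors as bars and filled points where the adjusted p was under 0.05. miR-146a-5p (blue) is called in macrophages with LPS (1.14), lipoproteins (0.75) and the knockout (0.68), and miR-146b-5p (red) in DC with LPS (0.76) and the knockout (0.97).

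The 3p arms, the strands that are mostly discarded during loading, were scarce. miR-146a-3p had 6 to 37 reads in each DC library, 241 in all or 3.12 CPM (95% interval 2.74 to 3.54). In macrophages it had 9 reads in all (0.111 CPM, 0.0507 to 0.21) and was at 0 in 7 of 10 libraries. Pooled over libraries it was 28.2-fold higher in DC (14.6 to 62.4), without a test between samples. miR-146b-3p had 209 reads in DC (2.71 CPM, 2.35 to 3.1) and 2590 in macrophages (31.9 CPM, 30.7 to 33.2), 11.8-fold more (10.2 to 13.6). Each 3p arm thus followed its 5p partner in direction between the cell types. miR-146b-3p ranged from 24.4 to 42.38 CPM over the 10 macrophage libraries, all of which lay above the highest DC library (6.456 CPM).

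The highest share of 3p reads among all arm reads of a hairpin in a library was 0.0514% for miR-146a (knockout DC with LDL) and 0.0386% for miR-146b (wild-type DC with LDL). For miR-146a it was 0.0277% in DC and 0.0094% in macrophages (pooled reads). No test of that difference is given, since the 7 macrophage libraries without a read allow shares of up to 0.0229% to 0.0923%, and a lower share could not be seen in single libraries at this depth. For miR-146b it was 0.0216% in DC and 0.0126% in macrophages, higher in macrophages in 3 of 10 pairs (mean difference −0.009 percentage points, exact sign-flip permutation test, p = 0.0195, adjusted p = 0.0391 over 4 tests). These 4 tests include the cell type test of miR-146a that is not given, which had the smallest p. The adjusted p of miR-146b leans on that test, so it is not taken as a pass. In pooled reads there were 3610 5p reads for each 3p read of miR-146a in DC and 7920 for miR-146b in macrophages. Genotype differences in these shares did not pass (adjusted exact permutation p of 0.578 and 0.576). Reads from the loop were also found: 135 of the miR-146a loop in DC, of which 114 were 1 tag of 18 nt, against 1 in macrophages, and 5 and 64 of the miR-146b loop.

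The 5p arms ended at different places. The most frequent exactly matching reads of each are shown with the seed in capitals, and the difference to the annotated mature sequences lies in the bases after position 22. Reads with a non-templated tail are left out here and follow below. The commonest tailed form of miR-146a-5p had 173662 reads, more than the 79357 of its second exactly matching read.
miR-146a-5p, commonest read: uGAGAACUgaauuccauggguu
miR-146a-5p, the next: uGAGAACUgaauuccauggguua
miR-146b-5p, commonest read: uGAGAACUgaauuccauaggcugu
miR-146b-5p, the next: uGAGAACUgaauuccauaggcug
The commonest read of miR-146a-5p is the annotated one and made up 76.2% of the exactly matching reads of the arm. The shares and lengths that follow are also of exactly matching reads. For miR-146b-5p the annotated 22-nt form made up only 2.73%, the 24-nt form 71.6% and the 23-nt form 21.5%. The mean length was 22.11 ± 0.03 nt for miR-146a-5p and 23.66 ± 0.04 nt for miR-146b-5p (SD, n = 20). The difference of 1.55 ± 0.03 nt was seen in 20 of 20 libraries (exact sign-flip permutation test, p = 1.91e-06, the smallest that 20 pairs allow, adjusted p = 9.54e-06 over 15 tests of read ends).

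In both cell types the ends of each arm peaked at the same position. Reads of miR-146a-5p ended at the annotated base in 82.5% ± 1.76 (DC) and 78.4% ± 2.84 (macrophages; SD, n = 10 each), and 1 base later in 8.49% and 10.4%. Reads of miR-146b-5p ended 2 bases later in 75.3% ± 2.4 and 73.3% ± 3.4, and 1 base later in 20.4% and 22.2%. The length of miR-146b-5p did not pass between the cell types (mean difference −0.03 nt, exact permutation p = 0.0332, adjusted p = 0.0553), nor did that of miR-146a-5p (0.01 nt, adjusted exact permutation p = 0.249). Between genotypes the lengths differed by 0.03 nt for miR-146a-5p and 0.01 nt for miR-146b-5p, each longer in the knockout in 9 of 10 pairs (exact permutation p = 0.00586 and 0.0234, adjusted p = 0.0176 and 0.0439). Among reads of 20 to 24 nt the difference of miR-146b-5p was 0.0099 nt and was no longer called (adjusted exact permutation p = 0.0549).

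**Figure D4:**
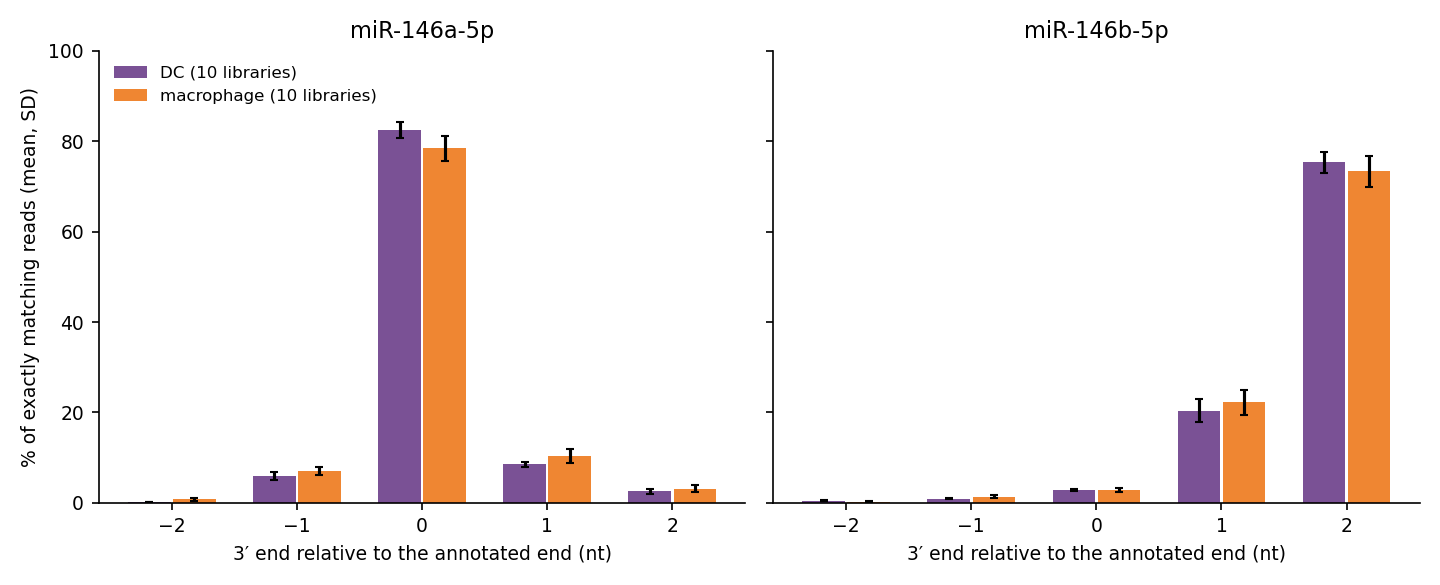
Position of the 3′ end of exactly matching 5p reads relative to the annotated end (x, nt) and its share (y, mean with SD over 10 libraries of a cell type). miR-146a-5p peaks at 0 (82.5% in DC, 78.4% in macrophages) and miR-146b-5p at 2 (75.3% and 73.3%).

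The 5′ end, which sets the seed, was the annotated one in 91.83% ± 1.27 of miR-146a-5p reads and 97.63% ± 0.24 of miR-146b-5p reads (SD, n = 20), higher for miR-146b-5p in 20 of 20 libraries (exact permutation p = 1.91e-06, adjusted p = 9.54e-06). Most other reads of miR-146a-5p began 1 base earlier, 5.42% ± 0.93 in DC and 6.42% ± 1.15 in macrophages, which shifts the seed. For miR-146b-5p that start took 0.248% and 0.352%. The annotated start of miR-146b-5p was less frequent in macrophages in 10 of 10 pairs, by a mean difference of −0.44 percentage points (exact permutation p = 0.00195, adjusted p = 0.00732). For miR-146a-5p the difference was −1.39 points, higher in macrophages in 2 of 10 pairs (exact permutation p = 0.00977, adjusted p = 0.0244).

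Reads with 1 to 3 bases at the 3′ end that the hairpin does not encode (non-templated tails) were counted separately. They made up 27.3% ± 3.39 of the reads of miR-146a-5p and 4.1% ± 0.58 of those of miR-146b-5p (SD, n = 20), higher for miR-146a-5p in 20 of 20 libraries, with differences of miR-146b-5p minus miR-146a-5p from −28.04 to −16.49 percentage points (exact permutation p = 1.91e-06, adjusted p = 9.54e-06). The commonest tailed form is shown with the added base in capitals.
miR-146a-5p with a U: ugagaacugaauuccauggguuU
It alone made up 13.3% of all miR-146a-5p reads with tails included, and 99.7% of the single U tails of the arm followed the annotated end. A U added just before or 1 base after that end would match the hairpin and not count as a tail. The hairpin sequence thus largely sets the 99.7%. A single U was found on 14.4% ± 2.2 of miR-146a-5p reads in DC and 13.2% ± 1.6 in macrophages, and on 0.902% and 0.819% of miR-146b-5p reads. A single A was found on 5.72% and 7.11% of miR-146a-5p reads and 1.12% and 1.23% of miR-146b-5p reads. The hairpin limits this comparison: the base after the annotated end of miR-146a-5p is A and the second base after that of miR-146b-5p is U, so that an A or U added there cannot be told apart from the encoded base. Such added U would count as the templated 24-nt form of miR-146b-5p. Tailed reads were also counted only up to 26 nt, so a tail of 3 bases on that 24-nt form was missed.

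The tailed share of miR-146a-5p was higher in the knockout in 9 of 10 pairs, by 3.19 ± 3.02 percentage points (SD; exact permutation p = 0.0117, adjusted p = 0.0251). In wild-type DC it was 20.2%, 26.4%, 23%, 24.6% and 20.8% in the order of stimuli, and in knockout DC 24.5%, 29.8%, 28.5%, 29.6% and 29.2%. In macrophages it ran from 24.1% to 31% in the wild type and from 27.9% to 32.1% in the knockout, and the exception was the pair with oxLDL. For miR-146b-5p the genotype difference was 0.05 points (exact permutation p = 0.871), and cell type differences did not pass for either arm.

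**Figure D5:**
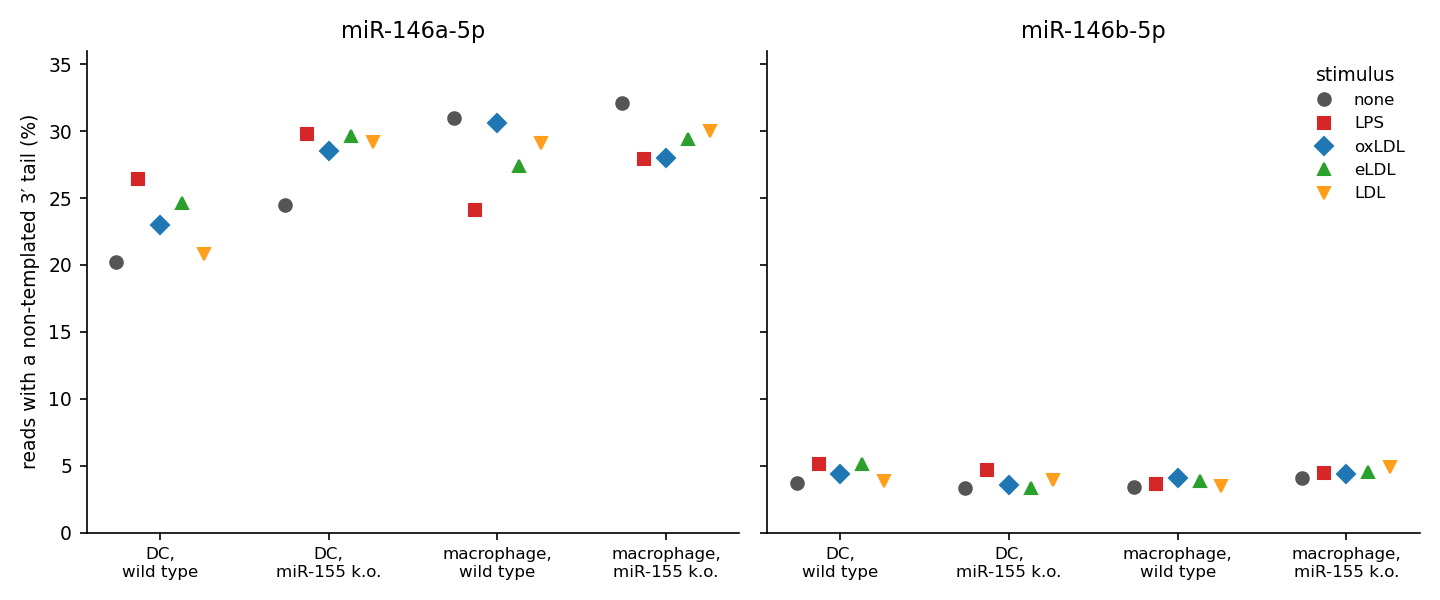
Share of 5p reads with a non-templated 3′ tail of 1 to 3 bases (y, % of exact and tailed reads of up to 26 nt), 1 point per library by culture and stimulus. miR-146a-5p lies between 20.2% and 32.1% and miR-146b-5p between 3.32% and 5.14% in every library.

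With miR-146b-5p so abundant in macrophages, sequencing errors could pass for miR-146a-5p. Reads of at least 21 nt that hold 1 base of each paralogue measure this. They amounted to 0.125% of the miR-146b reads in macrophages (A18G in 0.119% and C21U in 0.00624%, counted from miR-146b-5p). In DC they were 0.162% of the miR-146b reads. There 849432 reads held both bases of miR-146a and 945139 both of miR-146b, so mixed reads could come from either paralogue. The DC value is therefore not an error rate of miR-146b. Both changes are needed to turn 1 paralogue into the other, and 92581 macrophage reads held both bases of miR-146a. Reads that end before position 21 need only A18G. In macrophages 895 such reads were counted as miR-146a-5p, 0.957% of the miR-146a reads that were short or held both bases, where the A18G rate would give 67.2. With reads of at least 21 nt alone, the share of miR-146b in unstimulated wild-type macrophages was 99.81%, as with all reads.

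Among the 24 arms of a list of miRNAs reported to follow Toll-like receptor or NF-kB signals, all 24 were tested. With LPS in DC, 12 rose and 2 fell, with a median of 0.59 against −0.04 over all tested arms, of which 21.8% were called. miR-147-3p rose by 6.95 ± 0.33 (adjusted p = 2.69e-10), and miR-155-5p, from the wild type, by 6.26 ± 1.04 (adjusted p = 0.00201). miR-222-3p (−1.08 ± 0.25) and miR-223-3p (−0.90 ± 0.13), the myeloid miRNA, fell. The rise of miR-146b-5p (0.76) was thus small beside the strongest of the list. With LPS in macrophages, 6 rose and 5 fell (median 0.41 against 0.16 over all tested arms, of which 19.9% were called). The rises were led by miR-155-3p (2.81 ± 0.36), miR-147-3p (1.48 ± 0.23) and miR-132-3p (1.05 ± 0.22). Of these, miR-147-3p and miR-132-3p stood next to the 1.14 of miR-146a-5p. miR-99b-3p (−1.80), let-7e-5p (−1.06) and miR-223-3p (−1.01) fell. For the knockout in DC, 2 rose and 3 fell, with a median of 0.08 against 0.05 over all tested arms, of which 8.55% were called. In knockout macrophages 5 rose and 13 fell, with a median of −0.74 against 0.04 over all tested arms, of which 24.4% were called. Among those that fell in each cell type were miR-155-5p and miR-155-3p, which the knockout removes. In macrophages let-7e-3p (−3.93 ± 0.70) fell too, whereas miR-187-3p (1.70 ± 0.38), miR-9-3p (0.88 ± 0.18) and miR-9-5p (0.81 ± 0.19) rose with miR-146a-5p.

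The arms whose levels ran most alike with miR-146a-5p over the 20 libraries, after the mean of each cell type was subtracted from log2(CPM + 1), were miR-9-3p (Pearson's r = 0.842), miR-187-5p (0.822), miR-151-3p (0.809), miR-34a-5p (0.809) and miR-29a-3p (0.8), beside a median of 0.149 over all tested arms. miR-146b-5p came at place 287 in that list, with r = −0.087. For miR-146b-5p they were miR-342-3p (0.751), its own 3p arm (0.667), miR-139-5p (0.645), miR-141-3p (0.617) and miR-582-3p (0.591), beside a median of −0.103. miR-187-5p had a mean of only 2.565 CPM. From lowest to highest library, miR-146a-5p spanned 3.79 times in macrophages and 1.34 times in DC, and miR-146b-5p 1.15 and 3.07 times. Each r thus weighs mostly the cell type in which the arm varied. Both levels of a point are also scaled by the same library total, and points share genotype, so these values describe likeness within these libraries only.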

How the data were processed

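Small RNA from 20 mouse DC and macrophage cultures was sequenced (Trizol RNA, Illumina TruSeq, per the labels' protocols). The deposited files list distinct tags of 18 to 45 nt with whole-number read counts. The submitters' processing notes name CASAVA 1.8.2 with no role. How adapters were trimmed, and any filter or alignment, is not given in the sources used here. Exact matches of tags of 18 to 26 nt were sought in 1174 hairpins of GENCODE M21 (GRCm38), with arms from RefSeq for 1007 of them. Tags fitting several arms were divided equally. Counts of 386 arms that reached 5 CPM in 2 or more libraries were fitted in edgeR 4.0.16 (R 4.3.3, TMM, robust quasi-likelihood, Benjamini-Hochberg) with culture and stimulus within cell type (8 residual degrees of freedom): with 1 library per condition, the spread comes from departures of the genotypes from parallel responses. Ratios, arm shares and read ends used exact sign-flip permutation tests (numpy 2.4.6) over pairs matched by condition. Intervals are exact Poisson (levels) and binomial (shares) at 95% (scipy 1.17.1). The edgeR fit was tested on simulated counts and the matching on the annotated mature sequences. The other steps had no such test. Alternatives were DESeq2 1.42.0 (on rounded counts), other scalings, filters, matching rules and leaving out each library, and a fit within each cell type that was added after seeing the data. Named arms are the 4 members, the 5 most similar arms, up to 3 arms each way of the inflammation list, the 3 most abundant arms and miR-155-5p. Members and lists were chosen with earlier results of these data known.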

Additional observations from a re-analysis of the deposited data

Results flagged for a closer look

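A test of the difference between the cell types passed in 3 results. The LPS effect of miR-146b-5p in macrophages minus that in DC was −0.77 on the log2 scale, the genotype effect of miR-146a-5p differed by 0.65, and that of miR-146b-5p by −1.01. Among the 5 knockout macrophage libraries, the log2 ratio of miR-146b-5p to miR-146a-5p of the unstimulated library stood apart, at 8 against 7.2 to 7.39 in the other 4. Its gap to the nearest was 0.764 of the range of the group. The 5 libraries had different stimulus states and were not replicates, so a rate of chance flags among replicates does not apply. In knockout macrophages miR-146a-5p was 1.41 to 1.63 times as high with a stimulus as without.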

How the results depend on the processing

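Across 1627 recomputed values (78 results), 1553 kept their direction and side of the threshold, 53 lost a call and 21 gained one. None turned a called direction, where changes of sign between values that were called in neither fit are not counted. For miR-146a-5p with LPS in DC a call appeared with no filter on low counts (0.50) and with tags of a single arm only (0.54), and without the macrophage library with LPS of the knockout (0.45) or the wild type (0.44) or the unstimulated knockout one (0.50). The LPS difference between the cell types with total miRNA reads was 1.07 for miR-146a-5p, now called, and −0.40 for miR-146b-5p, no longer called. The genotype difference in mean length of miR-146b-5p among reads of 20 to 24 nt was 0.0099 nt, no longer called. Leaving out 1 library at a time gave LPS in DC 0.33 to 0.72 for miR-146a-5p, the LPS difference between cell types 0.28 to 1.07 for miR-146a-5p and −1.06 to −0.71 for miR-146b-5p, LPS against lipoproteins in macrophages −0.039 to 0.76, lipoproteins in macrophages 0.48 to 0.90 and the genotype difference between cell types 0.50 to 0.81, all for miR-146a-5p. The calls of single lipoproteins for miR-146a-5p in macrophages were lost with upper-quartile scaling (oxLDL 0.61, eLDL 0.66, LDL 0.61) and with macrophage libraries alone (0.71, 0.76 and 0.65). Scaling moved the split of calls: total miRNA reads gave 43 higher of 69 in the genotype difference between cell types (18 of 52 with TMM), 12 of 32 for genotype in DC (21 of 33), 82 of 95 for the LPS difference (32 of 51), 29 of 127 for LPS against lipoproteins in DC (51 of 102) and 29 of 63 in macrophages (34 of 53). Upper-quartile scaling gave 40 higher of 75 for LPS in macrophages (53 of 77) and 69 of 106 for genotype there (49 of 94), and moved the median of the cell type difference from 0.05 to −0.21. With no filter, 69 arms were called for lipoproteins in macrophages (45 with it) and 17 in DC (2). The causes were not tested. No paired analysis was possible because the labels give no replicate numbers to pair by. Pairs matched by condition are already used in the permutation tests and the terms of the fit. Depth limits the 3p arms most, with at most 42 reads in a DC library.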
